A study of Mus musculus with 16 samples.

Results

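The genes of the proteasome were taken as every entry of the deposited expression table whose symbol is Psm followed by a letter from a to g and a number, which gave 49 of the 35869 listed genes. They were 7 subunits of the α ring, the germ cell subunit Psma8, 4 structural and 3 catalytic β subunits, the 3 immune catalytic subunits Psmb8, Psmb9 and Psmb10, the thymic subunit Psmb11, 6 ATPases and 3 other subunits of the base, 8 subunits of the lid, 3 chaperones of base assembly, 4 chaperones of core assembly, the activators Psme1, Psme2, Psme2b, Psme3 and Psme4, and the inhibitor Psmf1. Microglia of wild-type C57/Bl6 male mice, 2 months old (young) or 18 months old (old), were incubated in vitro with 2.5 μM fluorescent Aβ42 for 2 h and sorted as live CD45int CD11b+ cells that had taken up the peptide (Aβ42+) or had not (Aβ42-). RNA was sequenced in 16 libraries, 4 each of young Aβ42+ and Aβ42- and old Aβ42+ and Aβ42- cells. Each replicate was a pool of 3 mice by the legend of the experiment, whereas the methods give 4 young and 4 old mice without a mention of pools, and the sample descriptions list the peptide for the Aβ42+ libraries only although the protocol covers all. Aβ42- cells are thus cells without detected uptake and not untreated cells, and p-values measure the spread between pools.

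The proteasome is the protease of the cytosol and nucleus that degrades proteins tagged with ubiquitin. Its barrel-shaped core holds the proteolytic sites of Psmb5, Psmb6 and Psmb7 inside rings of β subunits, the α rings form the gate, and the regulatory particle, a base with ATPases and a lid that removes ubiquitin, feeds substrates into it. Immune cells, microglia included, can build cores in which Psmb8, Psmb9 and Psmb10 replace Psmb5, Psmb6 and Psmb7, and can cap the core with the activator made of Psme1 and Psme2. Interferon γ induces these immune parts, and peptides that they yield are loaded on MHC class I molecules.

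Values were normalised transcript abundances (TPM), so the read depth behind them is unknown. All 12 microglia markers were expressed, with a summed level of 2928 to 3393 TPM in young Aβ42+, 2699 to 2799 in young Aβ42-, 1624 to 2562 in old Aβ42+ and 1109 to 2062 in old Aβ42- libraries. The 10 markers of neutrophils and their precursors summed to 2550 to 3416, 6414 to 8182, 3165 to 5887 and 7298 to 9775 TPM in the same order, and the 8 markers found of 9 for T and NK cells to 21.8 to 64.9, 401.4 to 579.5, 39.7 to 107.4 and 337.5 to 479.1 TPM. No marker of these lists was at 0 in any library. The 6 B cell markers, also never at 0, summed to 19.4 to 64.3, 60.9 to 137.5, 73.5 to 275.4 and 112.5 to 345.5 TPM in that order, and their median log2 difference for age was 1.25 in Aβ42+ and 1.11 in Aβ42- cells. The 8 markers of border macrophages and monocytes, of which Pf4 was at 0 in old Aβ42- replicate 4, summed to 231.5 to 340.5, 241.8 to 298.4, 282.5 to 513.2 and 323.1 to 424.7 TPM. Over the 16 libraries the 7 neuron markers summed to 20.89 to 240.0 TPM, with 238.4 TPM in old Aβ42+ replicate 3. Sums for oligodendrocytes ran from 40.95 to 57.37, for astrocytes from 35.24 to 102.0 and for endothelium from 34.72 to 97.46 TPM. Each of these 3 was highest in old Aβ42+ replicate 3. The part of these differences in the results below was not tested, and in bulk RNA fewer cells of a type and less RNA per cell cannot be told apart. The trimmed mean over receptor genes of smell and pheromone sensing, in TPM, taken as a background level of reads outside expressed genes, ran from 0.327 to 11.5 and was highest in old Aβ42+ replicate 3.

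All 49 genes passed the filter of 1 TPM in 4 libraries in every comparison. Mean levels over the 16 libraries, which TPM sets per length, spanned 3.99 TPM for Psma8 to 431.5 TPM for the lid subunit Psmd8. The 31 subunits of the constitutive 26S particle had a median of 218.9 TPM and began at 47.6 TPM for the α subunit Psma3. The 6 base ATPases, which unfold substrates, lay close together at 230.1 (Psmc6) to 319.7 TPM (Psmc1). Assembly chaperones, which act on unfinished particles and then leave them, were lower, at 30.5 (Psmd5) to 43.7 TPM (Psmd9) for the base and 24.7 (Psmg3) to 50.5 TPM (Psmg1) for the core. Of the immune catalytic subunits, Psmb8 was at 206.1, Psmb9 at 59.1 and Psmb10 at 39.4 TPM.

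Psma8 and Psmb11, known from testis and thymus, lay within the range of the background level over the 16 libraries. Within a library they could lie under or above it. In old Aβ42+ replicate 3 both were under its background of 11.5 TPM, and in old Aβ42- replicate 1 both were above its 0.327 TPM. Psma8 was at 1.96, 4.69, 5.76 and 2.97 TPM in young Aβ42+, 1.24, 4.72, 5.04 and 4.04 TPM in young Aβ42-, 2.73, 5.68, 8.99 and 5.38 TPM in old Aβ42+ and 2.97, 3.03, 2.69 and 1.99 TPM in old Aβ42- libraries. Psmb11 was at 0.931, 4.40, 7.94 and 4.35, then 1.05, 3.25, 10.6 and 6.42, then 1.75, 5.75, 6.12 and 6.71 and then 2.23, 1.35, 3.49 and 4.09 TPM in the same order of groups. All groups overlapped for both genes.

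**Figure D1:**
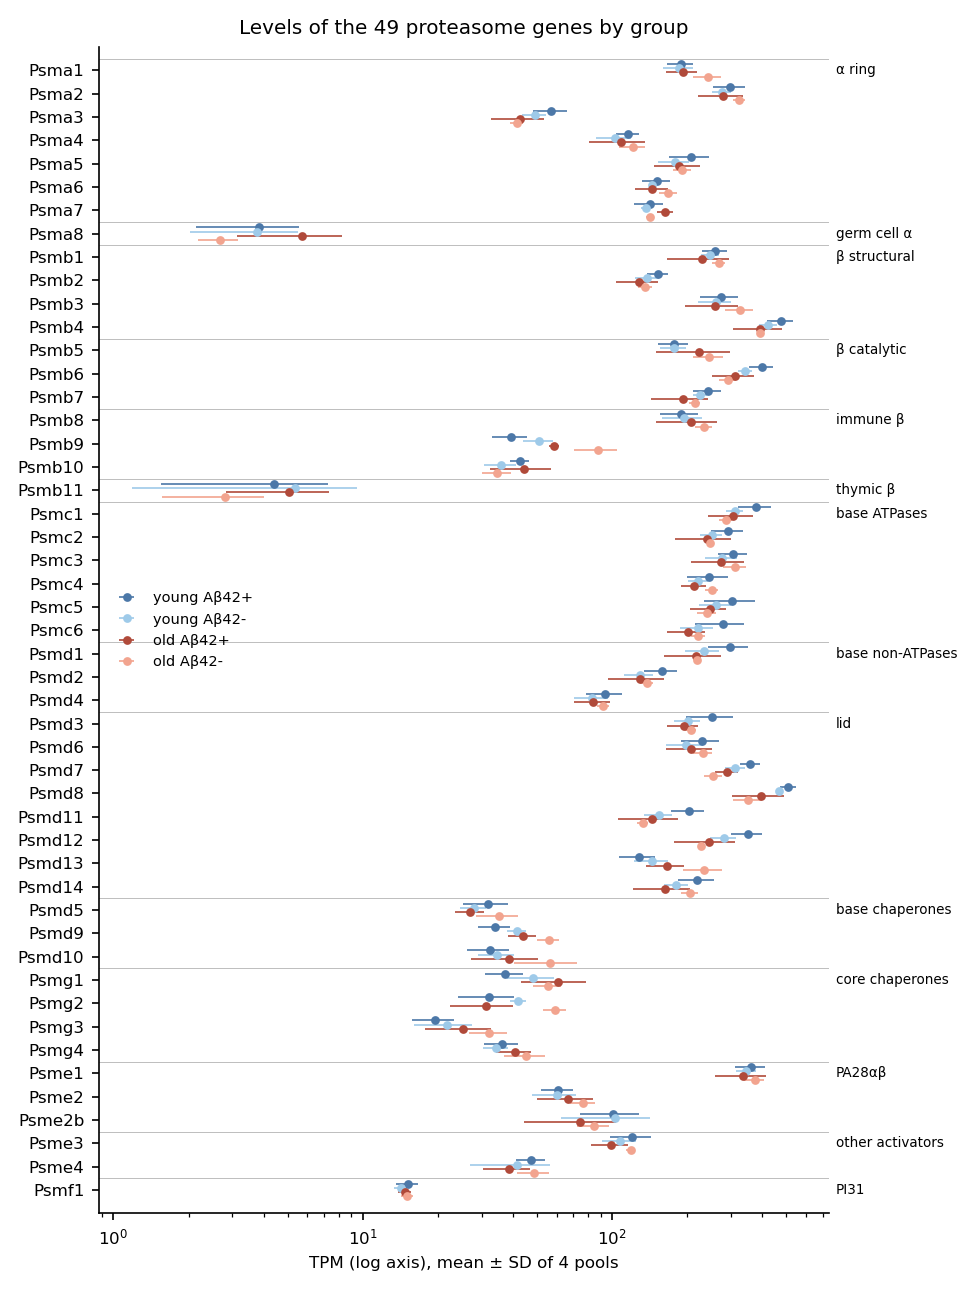
Mean TPM with SD of 4 pools per group for the 49 genes, ordered by their place in the proteasome, on a log axis. The constitutive 26S subunits span 47.6 (Psma3) to 431.5 TPM (Psmd8) as means over 16 libraries, the chaperones lie lower, and Psma8 and Psmb11 stand at the bottom at 3.99 and 4.40 TPM.

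The summed level of the 14 constitutive core subunits was 3490.1, 3050.3, 2620.1 and 3380.6 TPM in young Aβ42+ replicates 1 to 4, and 3126.6, 2727.0, 2709.5 and 2982.5 TPM in young Aβ42- libraries. Old mice had 3181.0, 3032.2, 1978.2 and 3220.6 TPM in Aβ42+ and 3312.9, 3205.0, 2908.6 and 2985.9 TPM in Aβ42- libraries. The groups overlapped throughout, and old Aβ42+ replicate 3 was the lowest of the 16.

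The summed TPM of base and lid divided by that of the core was 1.497, 1.51, 1.39 and 1.46 in young Aβ42+ libraries and 1.42, 1.44, 1.29 and 1.29 in young Aβ42- libraries. It was 1.32, 1.29, 1.32 and 1.29 in old Aβ42+ and 1.21, 1.22, 1.30 and 1.24 in old Aβ42- libraries. All old Aβ42+ libraries lay under all young Aβ42+ libraries, whereas the groups of the other 3 comparisons overlapped. This ratio within a library does not move with its scaling, and as a score over the genes it was given no test.

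**Figure D2:**
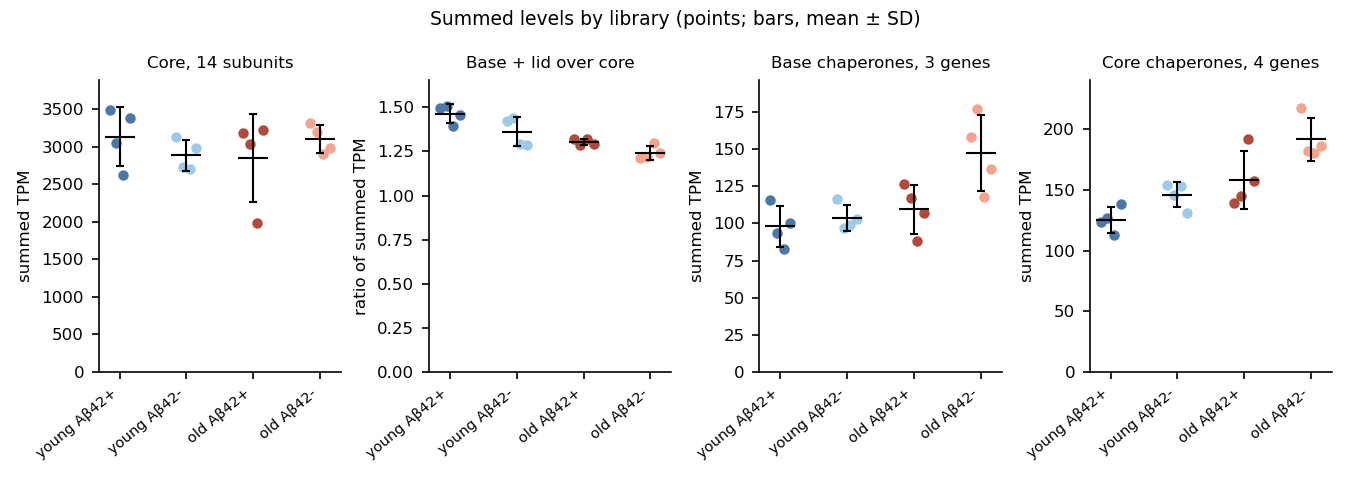
Summed TPM over parts of the proteasome and the ratio of base plus lid to core, with a point per library and bars for mean and SD of 4 pools. The ratio is 1.46 ± 0.0532 for the young Aβ42+ and 1.24 ± 0.0388 for the old Aβ42- group, and both chaperone sums have their highest mean in old Aβ42- libraries, at 147.4 ± 25.9 TPM for the base and 191.7 ± 17.4 TPM for the core.

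Differences of single genes were tested on log2(TPM + 1) with limma over all genes at an adjusted p of 0.05. Between old and young Aβ42+ cells none of the 49 genes passed, where 0.0268% of all tested genes did. At an unadjusted p of 0.05 there were 2 higher (Psmb9 and Psmg1) and 1 lower (Psmd12) in old cells. Of all genes 4.70% and 4.52% were, and of genes averaging 50 TPM or more 5.50% and 19.3%. The median log2 difference of the 49 was -0.16 against 0.38 over all genes and -0.25 over genes averaging 50 TPM or more. The libraries of the groups did not overlap for 2 higher genes, Psmb9 and Psmd9 (all genes 2.85%, genes averaging 50 TPM or more 2.71%), and for 1 lower gene, Psmd8 (all genes 2.65%, genes averaging 50 TPM or more 9.70%).

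Most of these differences leaned on old Aβ42+ replicate 3. Without it the log2 difference for age in Aβ42+ cells turned its sign for 8 of the 49 genes and moved by over 1.5 times for another 32, and the median went from -0.16 to -0.06. Differences above 0 that stayed within 1.5 times of their values with all libraries were those of Psmb9 (0.57), Psmg1 (0.53), Psmd13 (0.50), Psmd9 (0.39), Psma7 (0.24) and Psmg4 (0.22). Those below 0 that did so were Psmc6 (-0.31), Psmd3 (-0.25) and Psmd7 (-0.24), and none of the 49 passed. Between the sorts of old mice 13 turned their sign and 25 moved by over 1.5 times, with the median going from 0.17 to 0.01, and Psmg2 (1.09) still passed.

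Between old and young Aβ42- cells none of the 49 passed either, where 2.15% of all genes and 9.49% of genes averaging 50 TPM or more did. At an unadjusted p of 0.05, 11 were higher and 4 lower in old cells, where 10.6% and 13.4% of all genes and 33.4% and 13.8% of genes averaging 50 TPM or more were. The adjusted p of Psmb9, Psmd13, Psmd8 and Psmg2 in this comparison ran from 0.0522 to 0.0817. The median of the 49 was 0.11, against -0.56 over all genes and 0.16 over genes averaging 50 TPM or more. Groups did not overlap for 6 higher genes (Psma2, Psma6, Psmb9, Psmd9, Psmd13 and Psmg2) and 2 lower ones (Psmd8 and Psmd12), where 5.96% and 5.07% of all genes and 17.8% and 9.38% of genes averaging 50 TPM or more were apart. The count rested on single libraries, since 11 genes passed without young Aβ42- replicate 1, where 42.0% of all genes did, and 7 without old Aβ42- replicate 3, where 14.5% did. With the replicate number as a block 4 passed, where 12.2% of all genes and 26.9% of genes averaging 50 TPM or more did. Young and old pools hold different mice. Residuals of their same-numbered Aβ42- libraries still correlated across genes, at r = 0.575, -0.0622, 0.413 and 0.028 for replicates 1 to 4. What these libraries share was not tested.

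Between the sorts of young mice none of the 49 passed, where 1.67% of all genes and 6% of genes averaging 50 TPM or more did. At an unadjusted p of 0.05, 1 was higher (Psmb9) and 2 lower (Psmd11 and Psmd12) in Aβ42- cells (all genes 4.57% and 2.40%). No gene of the 49 had groups apart, where 4.05% of all genes were apart and higher and 1.6% apart and lower. Between the sorts of old mice 1 passed, Psmg2, where 13% of all genes and 18.6% of genes averaging 50 TPM or more did. The median of the 49 was -0.13 in young and 0.17 in old mice, against 0.04 and -0.89 over all genes and -0.10 and 0.31 over genes averaging 50 TPM or more. In old mice Psmb9, Psme3 and Psmg2 were apart and higher in Aβ42- cells, and Psma7, an α subunit, was apart and lower. Of all genes 8.12% and 13.8% were, and of genes averaging 50 TPM or more 25.0% and 4.10%.

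**Figure D3:**
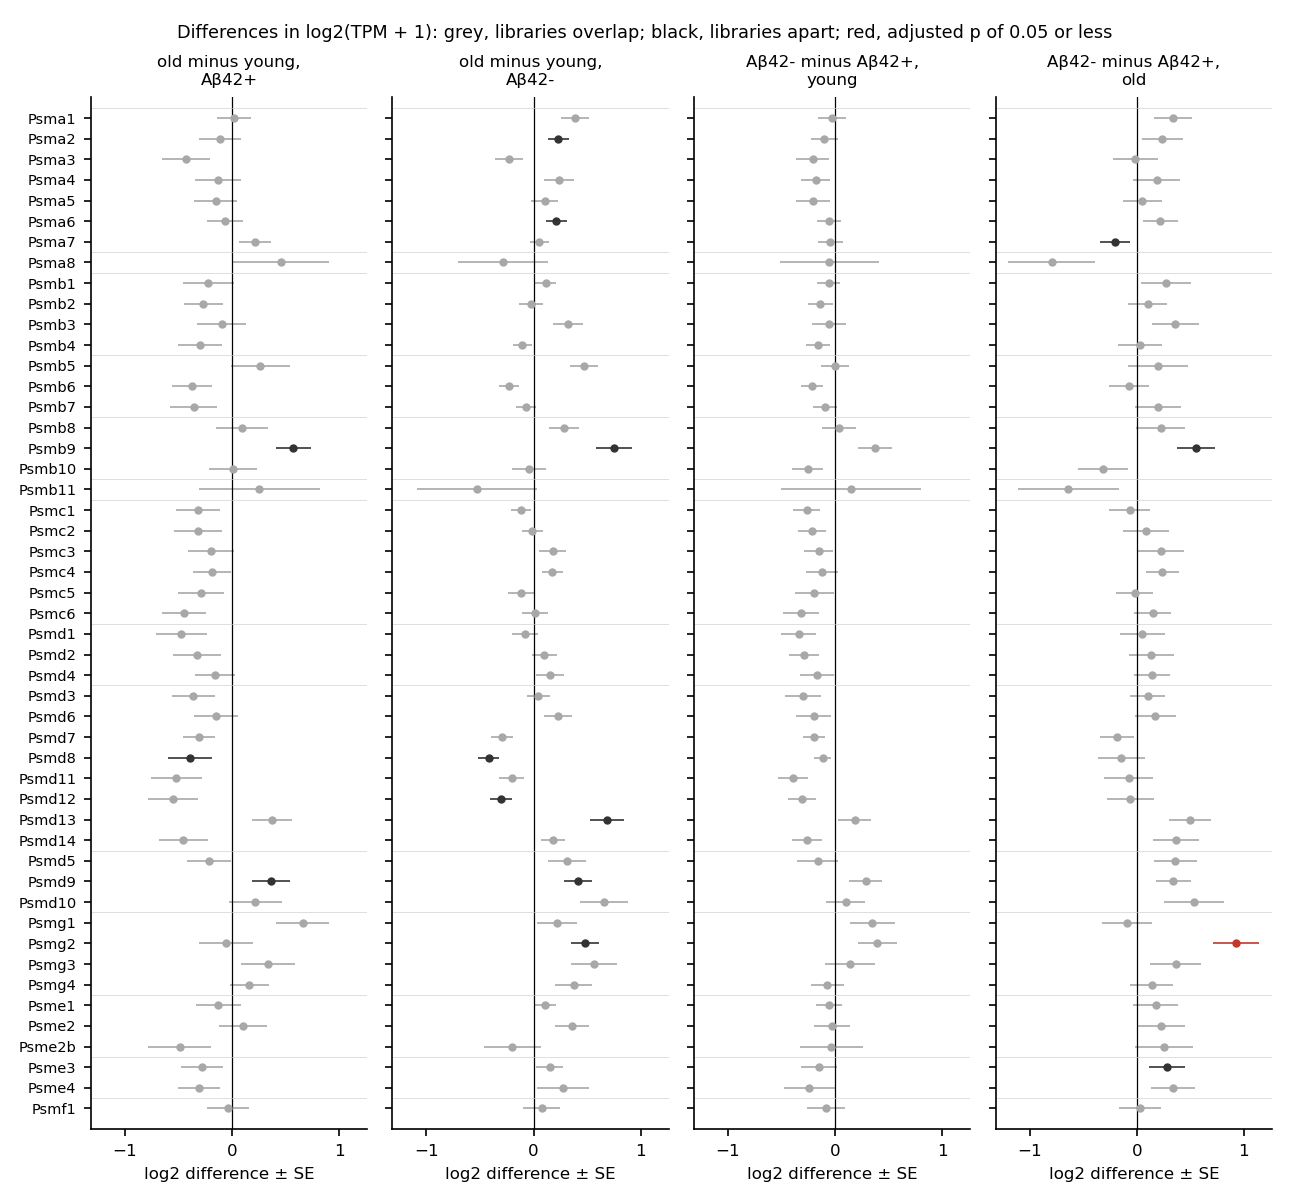
Differences in log2(TPM + 1) with SE from limma for the 49 genes in the 4 comparisons of 4 against 4 libraries. Points are coloured by whether the libraries of the groups overlapped, and Psmg2 between the sorts of old mice, at 0.93, is the only one with an adjusted p under 0.05.

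Same-numbered Aβ42+ and Aβ42- libraries of an age were taken as sorts of the same pool, of which their titles give only the shared number. With the pool as a block 4 genes passed between the sorts of old mice, all higher in Aβ42- cells, namely Psmg2 (adjusted p = 0.0154, limma), Psmd10 (0.0176), Psmd13 (0.0257) and Psmb9 (0.0331), where 57.9% of all genes and 39.3% of genes averaging 50 TPM or more passed. None of the 49, and none of all genes, passed with the background level as a covariate beside the block. The change of the uptake difference with age, tested in all 16 libraries, was called for none of the 49 (all genes 0.0116%, and 1 of the 49, Psmd14, with a positive change at an unadjusted p of 0.05, as had 4.51% of all genes). With the pool as a block it was called for Psmd10 (0.44 ± 0.15 SE), Psmd5 (0.52 ± 0.18) and Psmd14 (0.63 ± 0.21), where 36.9% of all genes and 21.4% of genes averaging 50 TPM or more passed. Each group enters one comparison of age and one of sorts, so these comparisons share libraries, and their values are given side by side.

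Scaling moved these values together. Median-of-ratios factors changed the median over all genes from 0.38 to 0.03 for age in Aβ42+ cells, from -0.56 to -0.28 for age in Aβ42- cells and from -0.89 to -0.40 between the sorts of old mice, and the median of the 49 from -0.16 to -0.61, from 0.11 to 0.49 and from 0.17 to 0.87. Levels were therefore also set against the geometric mean of the 31 constitutive 26S subunits of the same library, which ran from 135.4 TPM in old Aβ42+ replicate 3 to 254.7 TPM in young Aβ42+ replicate 1. This measure was added after the data were seen, and as the subunits form their own reference, their spread against it is smaller by construction. Such a ratio shows unequal levels among subunits and not which of them differed.

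Psmb9, Psmb8 and Psmb10 are the immune counterparts of Psmb6, Psmb5 and Psmb7, and Psmb9 and Psmb8 stand beside Tap1 and Tap2, which carry peptides to MHC class I molecules. The promoter windows of the pair whose balance differed most between groups and of the pair that stayed near even shares are shown, from 250 bases before to 50 after the start (RefSeq, GRCm38). Capitals mark the antioxidant response core TGACNNNGC, the site class of the Nrf factors that act on proteasome genes, and the γ-activated element TTCNNNGAA, known from promoters that interferon γ induces.
Psmb9 (chr17:34187281-34187580, minus strand): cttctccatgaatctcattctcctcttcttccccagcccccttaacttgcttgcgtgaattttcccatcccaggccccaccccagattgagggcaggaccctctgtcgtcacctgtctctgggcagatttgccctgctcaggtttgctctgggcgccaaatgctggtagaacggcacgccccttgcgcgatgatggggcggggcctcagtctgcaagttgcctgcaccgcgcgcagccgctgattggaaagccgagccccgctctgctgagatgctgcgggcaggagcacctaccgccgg
Psmb6 (chr11:70525107-70525406, plus strand): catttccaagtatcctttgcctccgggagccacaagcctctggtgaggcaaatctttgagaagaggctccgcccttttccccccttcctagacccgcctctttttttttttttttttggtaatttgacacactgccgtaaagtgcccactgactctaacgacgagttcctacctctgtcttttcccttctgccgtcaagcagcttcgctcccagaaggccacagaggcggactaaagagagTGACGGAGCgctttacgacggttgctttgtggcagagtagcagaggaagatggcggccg
Psmb8 (chr17:34197945-34198244, plus strand): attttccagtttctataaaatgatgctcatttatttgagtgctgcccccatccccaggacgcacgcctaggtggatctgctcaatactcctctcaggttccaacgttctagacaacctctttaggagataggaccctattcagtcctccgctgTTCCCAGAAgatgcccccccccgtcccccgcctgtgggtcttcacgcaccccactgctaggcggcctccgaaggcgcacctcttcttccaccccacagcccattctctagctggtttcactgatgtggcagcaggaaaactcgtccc
Psmb5 (chr14:54617946-54618245, minus strand): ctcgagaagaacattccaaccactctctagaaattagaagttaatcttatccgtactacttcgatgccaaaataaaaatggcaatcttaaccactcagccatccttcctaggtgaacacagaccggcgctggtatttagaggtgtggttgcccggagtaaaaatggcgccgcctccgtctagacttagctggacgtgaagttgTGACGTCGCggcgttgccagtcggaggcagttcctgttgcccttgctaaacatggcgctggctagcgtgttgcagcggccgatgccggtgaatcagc
The antioxidant core was in the windows of both constitutive subunits and the γ-activated element in that of Psmb8. The window of Psmb9 held neither of them, nor the interferon factor element, GAAA and GAAA with any 2 bases between. Over the 44 windows found for 41 of the 49 genes, with both strands searched, the antioxidant core was in 13.6% against 12.4% of 32851 windows of all genes, the γ-activated element in 6.8% against 8.3% and the interferon factor element in 11.4% against 3.4%. The 5 windows with the interferon factor element were those of Psmb3, Psmd4, Psmd9, Psme1 and Psmg4. Of these only Psme1 is an immune part. The box GGGCGG was in 54.5% against 35.7%, and CCAAT in 31.8% against 37.4%. These are letter matches and not binding sites.

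Psmb9, which lies at chr17:34182030-34187330 on the minus strand of mm10, was at 37.7, 31.5, 42.1 and 46.1 TPM in young Aβ42+ and 60.7, 48.6, 50.4 and 44.4 TPM in young Aβ42- libraries. In old mice it was at 59.6, 54.8, 59.5 and 60.3 TPM in Aβ42+ and 91.8, 106.5, 65.9 and 85.6 TPM in Aβ42- libraries. All old libraries lay above all young ones of the same sort, and all old Aβ42- above all old Aβ42+ libraries, whereas the young sorts overlapped. The log2 difference between old and young was 0.57 ± 0.16 (SE) in Aβ42+ cells (adjusted p = 0.42, limma) and 0.75 ± 0.17 in Aβ42- cells (adjusted p = 0.0522). That between Aβ42- and Aβ42+ cells was 0.37 ± 0.16 in young (adjusted p = 0.68) and 0.55 ± 0.18 in old mice (adjusted p = 0.0591, and 0.0331 with the pool as a block, limma). Under median-of-ratios factors these 4 differences were 0.12, 1.13, 0.31 and 1.24.

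Psmb9 and Tap1 overlap by 212 exonic bases on opposite strands, and 10.1% of the 85-base words of the Psmb9 transcript are found in Tap1. Whether strand was used in counting is not given in the sources used here, so reads of this stretch cannot be told apart. Tap1 was at 55.0 ± 7.78, 66.8 ± 9.90, 71.3 ± 19.9 and 106.6 ± 18.5 TPM (SD, n = 4) in young Aβ42+ and Aβ42- and old Aβ42+ and Aβ42- libraries.

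Psmb6, the constitutive counterpart of Psmb9, was at 436.8, 398.9, 337.7 and 416.7 TPM in young Aβ42+ and 355.4, 355.4, 308.3 and 346.5 TPM in young Aβ42- libraries. Old Aβ42+ libraries had 337.6, 334.5, 221.8 and 349.3 TPM and old Aβ42- libraries 294.9, 264.9, 320.1 and 287.1 TPM. The groups overlapped in each comparison. The log2 difference for age was -0.37 ± 0.19 in Aβ42+ (adjusted p = 0.58, limma, and -0.22 without old Aβ42+ replicate 3) and -0.23 ± 0.10 in Aβ42- cells (adjusted p = 0.19), and under median-of-ratios factors -0.83 and 0.15.

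The share of Psmb9 in the sum of Psmb9 and Psmb6 was 7.95%, 7.32%, 11.1% and 9.95% in young Aβ42+ and 14.6%, 12.03%, 14.1% and 11.3% in young Aβ42- libraries. It was 15.0%, 14.1%, 21.2% and 14.7% in old Aβ42+ and 23.7%, 28.7%, 17.1% and 23.0% in old Aβ42- libraries. Old libraries were above young ones without overlap in both sorts, and young Aβ42- above young Aβ42+ libraries, whereas the old sorts overlapped through replicate 3 of both. The differences were 7.16 points ± 1.87 (SE) for age in Aβ42+ cells, 10.1 ± 2.50 for age in Aβ42- cells and 3.93 ± 1.17 between young sorts. Each of these had p = 0.0286 in the exact two-sided permutation test, the smallest that 4 against 4 libraries allow, and an adjusted p of 0.0857 over the 12 tests of shares. That test treats the young sorts as independent libraries, and with the libraries paired by pool p was the smallest that 4 pairs allow, which is above 0.05. Between old sorts the difference was 6.87 ± 2.89 points (exact permutation p = 0.0571, adjusted p = 0.114), and 10.5 points without replicate 3 of every group.

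Within pools the share of Psmb9 in Aβ42- cells exceeded that in Aβ42+ cells by 6.65, 4.71, 2.96 and 1.40 points in young mice. In old mice the same difference was 8.74, 14.6, -4.09 and 8.25 points. The young pools thus all had the higher share in Aβ42- cells, and 3 of 4 old pools did. The means of old and young pools differed by 2.94 points (exact permutation p = 0.514, adjusted p = 0.771 over the 3 pairs).

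Psmb8, the immune subunit in the place of Psmb5, was at 235.6, 184.7, 159.3 and 176.9 TPM in young Aβ42+ and 240.9, 170.5, 161.8 and 203.1 TPM in young Aβ42- libraries. Pools of old mice gave 234.6, 237.4, 122.3 and 234.3 TPM for Aβ42+ and 260.7, 224.3, 220.5 and 231.1 TPM for Aβ42- cells. The groups overlapped in all comparisons, with old Aβ42+ replicate 3 the lowest of the 16. The largest of its 4 log2 differences was 0.28 ± 0.14, for age in Aβ42- cells (adjusted p = 0.22, limma).

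Psmb5, which holds the chymotrypsin-like site, was at 209.3, 162.0, 155.1 and 182.1 TPM in young Aβ42+ and 207.8, 171.8, 163.6 and 163.1 TPM in young Aβ42- libraries. At 18 months the levels were 263.7, 265.9, 114.5 and 250.2 TPM in Aβ42+ and 279.0, 261.2, 200.4 and 240.7 TPM in Aβ42- libraries. The groups overlapped, by old Aβ42- replicate 3 and young Aβ42- replicate 1 in the age comparison of Aβ42- cells, where the difference was 0.47 ± 0.13 (adjusted p = 0.0859, limma). Of the 85-base words of Psmb5, 33.6% recur in Gm3375 and Mir686, the second of which lies in its exons and was listed at 424.4, 429.1, 517.2 and 593.8 TPM as means of young Aβ42+ and Aβ42- and old Aβ42+ and Aβ42- libraries, so the level of Psmb5 is uncertain.

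The share of Psmb8 in the sum of Psmb8 and Psmb5 was 53.0%, 53.3%, 50.7% and 49.3% in young Aβ42+ and 53.7%, 49.8%, 49.7% and 55.5% in young Aβ42- libraries. It was 47.1%, 47.2%, 51.6% and 48.4% in old Aβ42+ and 48.3%, 46.2%, 52.4% and 48.99% in old Aβ42- libraries. All groups overlapped, and none of the 4 differences passed, with adjusted p from 0.196 to 0.857 in the exact permutation test. The age differences were -2.98 points ± 1.43 (SE) in Aβ42+ and -3.20 ± 1.93 in Aβ42- cells.

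Psmb10, the immune subunit in the place of Psmb7, was at 46.5, 37.6, 44.0 and 43.2 TPM in young Aβ42+ and 41.2, 28.7, 37.2 and 36.2 TPM in young Aβ42- libraries. In old mice it was at 43.5, 57.1, 28.2 and 49.03 TPM in Aβ42+ and 41.4, 33.7, 32.2 and 31.5 TPM in Aβ42- libraries. The groups overlapped, and between the old sorts 3 of 4 Aβ42+ libraries lay above all Aβ42- libraries. The log2 difference between old sorts was -0.31 ± 0.23 (adjusted p = 0.28, limma) and 0.37 under median-of-ratios factors.

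Psmb7, which holds the trypsin-like site, was at 270.3, 240.5, 199.6 and 256.3 TPM in young Aβ42+ and 219.8, 212.8, 222.6 and 247.9 TPM in young Aβ42- libraries. Old Aβ42+ libraries had 234.1, 198.4, 122.3 and 216.4 TPM and old Aβ42- libraries 227.7, 220.7, 207.2 and 204.9 TPM, with overlap throughout. Psmb7 shares 405 exonic bases with the opposite gene Nek6.

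The share of Psmb10 in the sum of Psmb10 and Psmb7 was 14.7%, 13.5%, 18.1% and 14.4% in young Aβ42+ and 15.8%, 11.9%, 14.3% and 12.7% in young Aβ42- libraries. It was 15.7%, 22.4%, 18.7% and 18.5% in old Aβ42+ and 15.4%, 13.3%, 13.4% and 13.3% in old Aβ42- libraries. The old sorts were apart, with Aβ42- lower, and the other groups overlapped. The difference between old sorts was -4.96 points ± 1.46 (SE, exact permutation p = 0.0286, adjusted p = 0.0857), where that of Psmb9 was above 0. Paired by pool, the p for Psmb10 was the smallest that 4 pairs allow, above 0.05. After subtraction of the background level, which was 5.75 ± 4.26 TPM (SD, n = 4) in old Aβ42+ and 1.31 ± 1.11 TPM in old Aβ42- libraries, the difference was -3.26 points and no longer at the smallest p.

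**Figure D4:**
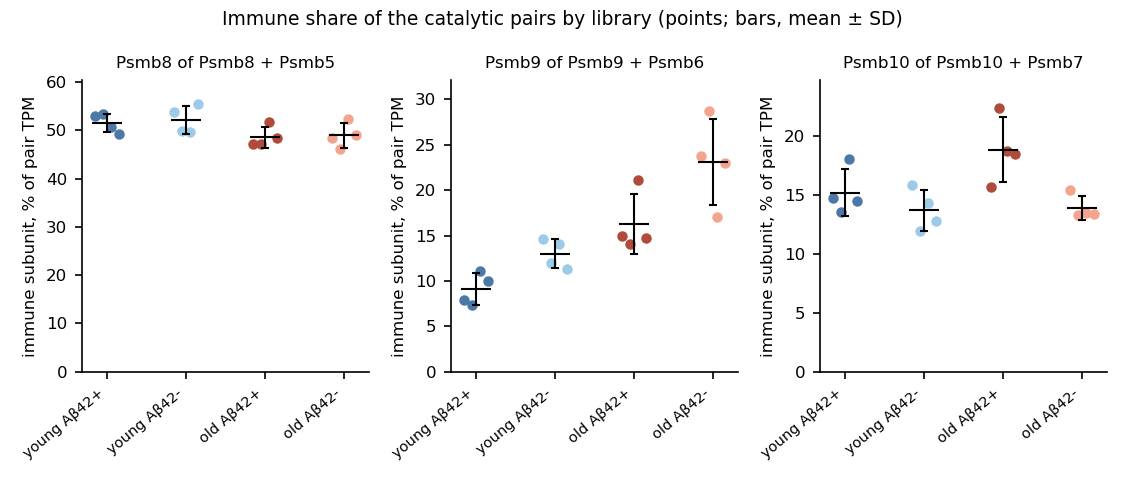
Share of the immune subunit in the summed TPM of each catalytic pair, with a point per library and bars for mean and SD of 4 pools. The mean share of Psmb9 is 9.08% in young Aβ42+, 13% in young Aβ42-, 16.2% in old Aβ42+ and 23.1% in old Aβ42- libraries, that of Psmb8 lies between 48.6% and 52.2%, and that of Psmb10 is highest in old Aβ42+ libraries at 18.8%.

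Of the 7 α subunits, 5 were lower in old than in young Aβ42+ cells, as were 69.1% of genes averaging 50 TPM or more. In Aβ42- cells 6 of the 7 were higher in old mice, where 63.8% of genes averaging 50 TPM or more were. The medians of the α subunits were -0.11 and 0.21 on the log2 scale, with no call by limma. Without old Aβ42+ replicate 3 only 2 α subunits were lower in Aβ42+ cells and their median was 0.05. Psma3, the lowest of the ring, was at 65.9, 58.5, 44.7 and 59.5 TPM in young Aβ42+ and 53.5, 52.7, 41.5 and 48.3 TPM in young Aβ42- libraries. Pools of old mice gave 49.4, 49.5, 27.8 and 44.9 TPM for Aβ42+ and 43.6, 38.4, 43.3 and 40.6 TPM for Aβ42- cells. Its groups overlapped on the TPM scale, with log2 differences for age of -0.43 ± 0.22 in Aβ42+ (adjusted p = 0.58, limma, and -0.24 without old Aβ42+ replicate 3) and -0.23 ± 0.13 in Aβ42- cells (adjusted p = 0.27). Against the 26S mean Psma3 was apart and lower in old cells of both sorts, with relative log2 differences of -0.20 in Aβ42+ and -0.28 in Aβ42- cells.

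The 4 structural β subunits, which complete the ring without a proteolytic site, had medians of -0.24 (-0.05 without old Aβ42+ replicate 3) and 0.04 for age in Aβ42+ and Aβ42- cells. Psmb3, which differed most, was at 288.8, 290.6, 201.7 and 309.0 TPM in young Aβ42+ and 300.5, 211.6, 246.4 and 284.1 TPM in young Aβ42- libraries. At 18 months the levels were 289.6, 277.5, 166.2 and 300.1 TPM in Aβ42+ and 369.5, 345.5, 272.8 and 313.2 TPM in Aβ42- libraries. The old sorts overlapped, and differed by 0.36 ± 0.22 (adjusted p = 0.20, limma), and by 0.16 without old Aβ42+ replicate 3.

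All 6 base ATPases and all 3 other base subunits were lower in old than in young Aβ42+ cells, with medians of -0.30 and -0.32 and no call, where 69.1% of genes averaging 50 TPM or more were lower. Without old Aβ42+ replicate 3 these medians were -0.13 and -0.12, with Psmc3 at 0.002 and Psmd4 at -0.03. In Aβ42- cells 3 ATPases were higher and 3 lower in old cells. Psmc6, the ATPase that differed most, was at 358.8, 251.3, 213.8 and 285.5 TPM in young Aβ42+ and 267.3, 217.6, 191.6 and 205.0 TPM in young Aβ42- libraries. In old mice it was at 226.9, 209.5, 149.6 and 220.4 TPM in Aβ42+ and 241.2, 219.5, 211.9 and 211.7 TPM in Aβ42- libraries. The groups overlapped, and the age difference in Aβ42+ cells was -0.45 ± 0.21 (adjusted p = 0.55, limma).

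Psmd1, a large scaffold of the base that docks ubiquitin receptors, was at 339.3, 301.8, 218.4 and 327.7 TPM in young Aβ42+ and 272.3, 252.1, 190.4 and 216.9 TPM in young Aβ42- libraries. Old Aβ42+ libraries had 255.6, 222.3, 136.3 and 253.8 TPM and old Aβ42- libraries 226.7, 217.2, 211.0 and 219.8 TPM. The groups overlapped, with an age difference of -0.47 ± 0.24 in Aβ42+ cells (adjusted p = 0.58, limma, and -0.26 without old Aβ42+ replicate 3). Against the 26S mean it was apart and lower in old Aβ42+ cells, with a relative log2 difference of -0.24.

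On the log2(TPM + 1) scale the lid held subunits with age differences of opposite sign and no call. Under median-of-ratios factors Psmd13, Psmd12 and Psmd11 shared their sign, above 0 in Aβ42- and below 0 in Aβ42+ cells. Psmd13, a scaffold subunit of the lid at chr7:140882394-140898642 on the plus strand of mm10, was at 152.6, 121.3, 102.0 and 135.4 TPM in young Aβ42+ and 176.4, 135.0, 124.7 and 144.0 TPM in young Aβ42- libraries. Pools of old mice gave 194.4, 174.7, 126.1 and 169.2 TPM for Aβ42+ and 265.7, 274.3, 185.9 and 213.0 TPM for Aβ42- cells. All old Aβ42- libraries lay above all young Aβ42- libraries, the other comparisons overlapped, and within pools Aβ42- was higher in 4 of 4 young and 4 of 4 old pools. Here and below, the share of all genes with pools of 1 direction was not counted. The log2 difference for age was 0.37 ± 0.19 in Aβ42+ (adjusted p = 0.58, limma) and 0.68 ± 0.16 in Aβ42- cells (adjusted p = 0.0555). Between the sorts it was 0.18 ± 0.15 in young (adjusted p = 1.0, limma) and 0.50 ± 0.20 in old mice (adjusted p = 0.0889, and 0.0257 with the pool as a block). Under median-of-ratios factors the age difference was -0.08 in Aβ42+ and 1.06 in Aβ42- cells.

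As a percentage of the 26S mean Psmd13 stood at 59.9%, 54.4%, 56.2% and 55.8% in young Aβ42+ and 78.6%, 69.1%, 69.0% and 72.8% in young Aβ42- libraries. It stood at 89.0%, 84.9%, 93.1% and 77.6% in old Aβ42+ and 121.5%, 129.7%, 93.8% and 106.9% in old Aβ42- libraries. The groups were apart in all 4 comparisons, and in the order of the means only young Aβ42- and old Aβ42+ overlapped. The relative log2 differences were 0.60 and 0.63 for age in Aβ42+ and Aβ42- cells and 0.35 and 0.38 between young and old sorts, with adjusted p of 0.12, 0.0262, 0.0502 and 0.0878 in limma with the 26S factors. Psmd13 shares 342 exonic bases with the opposite gene Sirt3, which was at 4.74 ± 0.683, 6.01 ± 0.478, 6.98 ± 1.71 and 9.38 ± 2.76 TPM (SD, n = 4) in young Aβ42+ and Aβ42- and old Aβ42+ and Aβ42- libraries.

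Psmd12, another scaffold subunit of the lid, was at 389.4, 359.9, 277.7 and 371.9 TPM in young Aβ42+ and 328.3, 282.1, 251.3 and 262.0 TPM in young Aβ42- libraries. At 18 months the levels were 298.4, 240.1, 150.9 and 288.1 TPM in Aβ42+ and 234.5, 224.8, 228.2 and 219.7 TPM in Aβ42- libraries. All old Aβ42- libraries lay under all young Aβ42- libraries, and the other comparisons overlapped. The log2 difference for age was -0.55 ± 0.23 in Aβ42+ (adjusted p = 0.53, limma, and -0.34 without old Aβ42+ replicate 3) and -0.30 ± 0.10 in Aβ42- cells (adjusted p = 0.14), the latter 0.08 under median-of-ratios factors. Relative to the 26S mean Psmd12 was at 155.0% ± 4.11 (SD, n = 4), 140.6% ± 6.16, 124.2% ± 12.04 and 109.7% ± 3.98 in young Aβ42+ and Aβ42- and old Aβ42+ and Aβ42- libraries. There its groups were apart and lower in old cells of both sorts (-0.32 in Aβ42+ and -0.36 in Aβ42- cells on the log2 scale) and in young Aβ42- cells. In Aβ42- cells the relative age difference had an adjusted p of 0.0387 in limma with the 26S factors.

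Psmd11, a lid subunit of the same kind, stood at 90.0% ± 2.94, 77.1% ± 4.13, 73.7% ± 8.02 and 64.5% ± 6.29 of the 26S mean (SD, n = 4) in young Aβ42+ and Aβ42- and old Aβ42+ and Aβ42- libraries. It was apart and lower in old cells of both sorts and in young Aβ42- cells. On the log2(TPM + 1) scale its age difference in Aβ42- cells was -0.21 ± 0.11 (adjusted p = 0.26, limma), and 0.17 under median-of-ratios factors.

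**Figure D5:**
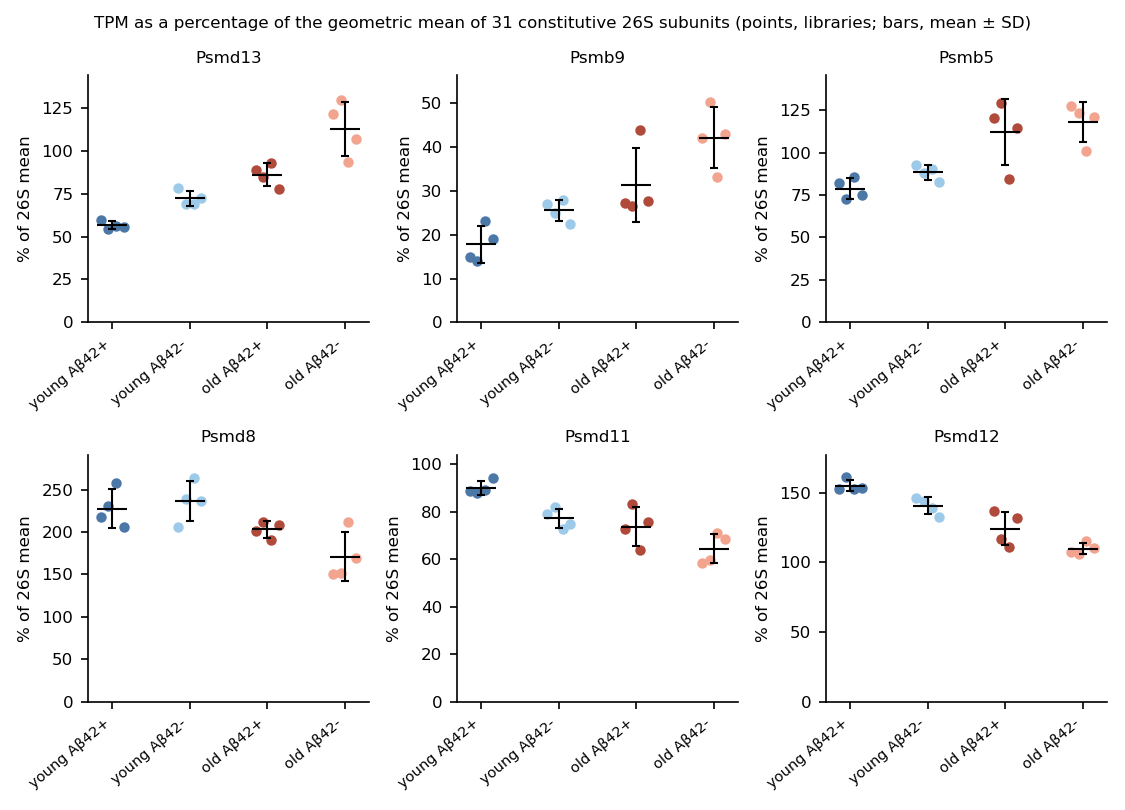
Levels of single subunits as a percentage of the geometric mean of the 31 constitutive 26S subunits, with a point per library and bars for mean and SD of 4 pools. Psmd13 is at 56.6% ± 2.37 for young Aβ42+ and 113.0% ± 15.9 for old Aβ42- cells, and Psmd12 at 155.0% ± 4.11 and 109.7% ± 3.98. Both are among the 31, so higher relative levels of some subunits go with lower ones of others by construction.

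Psmd8, a small lid subunit and the most abundant of the 49, was at 554.0, 513.8, 468.3 and 498.5 TPM in young Aβ42+ and 462.1, 467.4, 475.5 and 468.9 TPM in young Aβ42- libraries. In old mice it was at 440.3, 435.9, 257.8 and 454.0 TPM in Aβ42+ and 328.8, 321.4, 420.1 and 337.9 TPM in Aβ42- libraries. All old libraries were under all young ones of the same sort. The difference was -0.39 ± 0.21 in Aβ42+ (adjusted p = 0.58, limma, and -0.20 without old Aβ42+ replicate 3) and -0.42 ± 0.10 in Aβ42- cells (adjusted p = 0.0618), the latter -0.04 under median-of-ratios factors, and relative to the 26S mean the groups overlapped.

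Psmd14, the lid enzyme that cuts ubiquitin from substrates, was at 246.0, 213.0, 171.2 and 247.7 TPM in young Aβ42+ and 208.0, 185.8, 169.2 and 162.0 TPM in young Aβ42- libraries. Old Aβ42+ libraries had 184.1, 167.8, 102.6 and 196.8 TPM and old Aβ42- libraries 219.2, 216.6, 185.4 and 198.8 TPM. It was lower in Aβ42- cells in 4 of 4 young pools and higher in 4 of 4 old pools, as were Psmc3 and Psmd5. Of the 49, 40 had a lower log2 mean in Aβ42- cells of young mice and 36 a higher one in old mice. Of genes averaging 50 TPM or more 66.0% and 72.3% had, and of all genes 44.9% and 26.9%. The contrast of Aβ42- with Aβ42+ cells was -0.27 in young and 0.37 in old mice (0.16 without old Aβ42+ replicate 3). The change of this contrast with age was 0.63 ± 0.26 (adjusted p = 0.25 in limma, 0.0438 with the pool as a block and 1.00 with the background level added to the block).

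Among the assembly chaperones, Psmg2, which pairs with Psmg1 to build α rings, was at 26.2, 27.1, 31.9 and 43.7 TPM in young Aβ42+ and 42.3, 43.9, 43.9 and 37.4 TPM in young Aβ42- libraries. Pools of old mice gave 31.1, 28.5, 43.0 and 22.0 TPM for Aβ42+ and 64.3, 58.9, 50.2 and 62.2 TPM for Aβ42- cells. Every old Aβ42- library lay above every library of the other 3 groups. The old sorts differed by 0.93 ± 0.22 (adjusted p = 0.0343, limma), and age in Aβ42- cells by 0.48 ± 0.13 (adjusted p = 0.0817). The call was lost without old Aβ42+ replicate 2 (0.90) or 4 (0.78), without old Aβ42- replicate 1 (0.89), 2 (0.93) or 4 (0.90), with quantile normalization (0.78), with the 26S factors (0.82), and with the background level subtracted (1.18) or as a covariate (0.99), while the difference stayed above 0. Relative to the 26S mean the old sorts overlapped. Its partner Psmg1 was at 37.3 ± 6.51, 48.2 ± 10.4, 60.9 ± 17.9 and 55.4 ± 7.15 TPM (SD, n = 4) in young Aβ42+ and Aβ42- and old Aβ42+ and Aβ42- libraries, with overlap in each comparison.

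Psmd10, known as gankyrin, escorts an ATPase during assembly of the base and was at 40.9, 26.4, 32.5 and 29.8 TPM in young Aβ42+ and 43.0, 32.4, 32.8 and 30.3 TPM in young Aβ42- libraries. At 18 months the levels were 46.1, 50.2, 25.2 and 33.4 TPM in Aβ42+ and 63.1, 72.8, 34.9 and 55.5 TPM in Aβ42- libraries. The groups overlapped, but within pools Aβ42- was higher in 4 of 4 young and 4 of 4 old pools. The old sorts differed by 0.54 ± 0.28 (adjusted p = 0.15 in limma, 0.0176 with the pool as a block), by -0.04 with the background level as a covariate, by 0.46 with that covariate beside the pool (adjusted p = 0.93) and by 0.35 without old Aβ42+ replicate 3.

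Psmd9 and Psmd5 are the other chaperones of the base. Psmd9 was at 34.0 ± 5.02 and 43.8 ± 5.67 TPM (SD, n = 4) in young and old Aβ42+ and at 41.4 ± 3.59 and 55.7 ± 5.73 TPM in young and old Aβ42- cells. Its old libraries lay above the young ones in both sorts, by 0.36 ± 0.18 (adjusted p = 0.57, limma) and 0.42 ± 0.13 (adjusted p = 0.11), and in Aβ42+ cells the difference was -0.09 under median-of-ratios factors. Psmd5 was at 38.3, 29.9, 23.4 and 35.3 TPM in young Aβ42+ and 31.7, 28.6, 23.4 and 27.9 TPM in young Aβ42- libraries. In old mice it was at 28.4, 27.4, 21.8 and 30.4 TPM in Aβ42+ and 41.2, 40.6, 28.3 and 30.5 TPM in Aβ42- libraries. The groups of Psmd5 overlapped, with Aβ42- lower in 4 of 4 young pools and higher in 4 of 4 old pools. Members of both chaperone groups shared 1 direction for age in Aβ42- cells. All 3 chaperones of the base and all 4 of the core had a higher log2 mean in old than in young Aβ42- cells. So had 28.0% of all genes and 63.8% of genes averaging 50 TPM or more, and none of the chaperones passed the test there.

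Psme1 forms with Psme2 the activator that opens the core without ATP or ubiquitin. It was at 387.2, 338.7, 304.7 and 413.5 TPM in young Aβ42+ and 393.4, 319.1, 333.1 and 338.2 TPM in young Aβ42- libraries. Old Aβ42+ libraries had 395.0, 365.0, 221.9 and 362.4 TPM and old Aβ42- libraries 402.6, 402.7, 349.6 and 336.3 TPM, and the groups overlapped in all 4 comparisons.

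Psme2 was at 71.7, 52.9, 54.5 and 64.0 TPM in young Aβ42+ and 77.6, 56.9, 53.6 and 51.5 TPM in young Aβ42- libraries. Pools of old mice gave 74.2, 78.1, 41.9 and 73.0 TPM for Aβ42+ and 78.8, 85.7, 64.2 and 77.7 TPM for Aβ42- cells. The groups overlapped, and the age difference in Aβ42- cells was 0.36 ± 0.16 (adjusted p = 0.21, limma). Psme2b, a near copy that shares 48.9% of the 85-base words of Psme2, was at 137.4, 84.2, 77.7 and 105.2 TPM in young Aβ42+, 153.6, 103.6, 95.6 and 56.3 TPM in young Aβ42-, 112.6, 55.2, 46.7 and 82.7 TPM in old Aβ42+ and 86.8, 66.5, 95.1 and 89.2 TPM in old Aβ42- libraries, so the level of either gene is uncertain.

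Psme3, the activator of the nucleus, was at 144.0, 128.4, 91.1 and 118.4 TPM in young Aβ42+ and 132.1, 104.9, 92.6 and 102.0 TPM in young Aβ42- libraries. At 18 months the levels were 112.5, 103.0, 74.9 and 105.2 TPM in Aβ42+ and 124.4, 121.1, 113.1 and 117.2 TPM in Aβ42- libraries. The old sorts were apart, by 0.28 ± 0.17 (adjusted p = 0.19, limma, and 0.15 without old Aβ42+ replicate 3), and the other comparisons overlapped.

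Psme4, a large single-chain activator, was at 55.3, 46.2, 39.7 and 48.8 TPM in young Aβ42+ and 60.4, 45.3, 33.0 and 27.5 TPM in young Aβ42- libraries. In old mice it was at 48.6, 37.7, 28.3 and 39.97 TPM in Aβ42+ and 55.9, 50.9, 39.1 and 48.7 TPM in Aβ42- libraries, with overlap throughout. The inhibitor Psmf1 was at 16.5, 16.1, 13.2 and 14.9 TPM in young Aβ42+, 13.3, 14.6, 15.1 and 13.6 TPM in young Aβ42-, 14.6, 14.1, 15.9 and 14.2 TPM in old Aβ42+ and 14.5, 15.5, 15.9 and 14.1 TPM in old Aβ42- libraries. Its groups overlapped in each comparison.

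Set against the 26S mean, 5 of the 49 genes were apart and higher and 8 apart and lower in old than in young Aβ42+ cells, where 3.43% and 3.45% of all genes and 7.79% and 15.4% of genes averaging 50 TPM or more were. The higher ones were Psma7, Psmb9, Psmd9, Psmd13 and Psme2, and the lower ones Psma3, Psmb6, Psmc2, Psmc6, Psmd1, Psmd11, Psmd12 and Psmd14. Between old and young Aβ42- cells 7 were higher and 7 lower (all genes 7.57% and 5.32%, genes averaging 50 TPM or more 23.7% and 11.3%). Between young sorts 3 were higher and 3 lower in Aβ42- cells (all genes 5.68% and 1.21%, genes averaging 50 TPM or more 16.4% and 4.57%). Between old sorts 5 were higher and 3 lower (all genes 7.64% and 11.6%, genes averaging 50 TPM or more 27.8% and 6.33%). With the 26S factors limma called 4 genes between old and young Aβ42- cells, Psmd13 (0.63), Psmb9 (0.70) and Psmb5 (0.41) higher and Psmd12 (-0.36) lower, where 4.26% of all genes were called, and none in the other comparisons.

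Of 9 tested partners outside the Psm symbols, such as the assembly factor Pomp, 1 passed in 1 comparison, that between old sorts, in which 13% of all genes passed. This was the deubiquitinase Uchl5, which was higher in Aβ42- than in Aβ42+ cells of old mice by 0.72 ± 0.21 (adjusted p = 0.0487, limma), at 32.6 ± 6.61 against 19.2 ± 2.25 TPM (SD, n = 4). None of the 5 regulators of proteasome genes passed in any comparison. Nfe2l1, a factor that induces proteasome genes, was at 40.6, 35.4, 28.3 and 37.4 TPM as means of young Aβ42+ and Aβ42- and old Aβ42+ and Aβ42- libraries, and Ddi2, the protease that activates it, at 420.9, 352.2, 242.6 and 235.2 TPM. None of 14 genes of ubiquitin, its activation and its shuttles passed. Of 11 genes of the MHC class I peptide pathway 1 passed, Tap2, higher in Aβ42- cells of old mice by 0.81 ± 0.20 (adjusted p = 0.0368, limma), in the same comparison.

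Interferon-stimulated genes were listed because interferons induce the immune subunits. Of 15 such genes 5 were lower in Aβ42- than in Aβ42+ cells of young mice by limma, where 0.243% of all genes were, and 4 in old mice, where 8.23% of all genes were, and none was higher. For age none was called. In Aβ42- cells 12 of the 15 had a higher log2 mean in old mice (all genes 28.0%, genes averaging 50 TPM or more 63.8%), with a median of 0.48 against -0.56 over all genes and 0.16 over genes averaging 50 TPM or more. Of these, 9 were higher at an unadjusted p of 0.05 (all genes 10.6%, genes averaging 50 TPM or more 33.4%), 5 had groups apart (5.96% and 17.8%) and 3 passed with the replicate number as a block (5.61% and 21.6%). In Aβ42+ cells 6 of the 15 had a higher log2 mean in old mice (all genes 74.0%, genes averaging 50 TPM or more 30.9%), with a median of -0.13. Rsad2, an antiviral enzyme among those lower in Aβ42- cells of young mice, was at 129.3 ± 27.2 TPM (SD, n = 4) in young Aβ42+ and 28.4 ± 9.23 TPM in young Aβ42- libraries (adjusted p = 0.00168, limma). A link between the interferon-stimulated genes and the immune subunits was not tested.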

How the data were processed

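The authors trimmed the reads of 85 bases, aligned them to mm10 and counted reads per gene with featureCounts, and the submitters' processing notes list FastQC 0.11.5, Trim Galore 0.4.2, cutadapt 1.9.1, STAR 2.5.2a and Picard 1.89. Use of strand and of reads with several matches in counting is not given in the sources used here. The values deposited by the authors were TPM per gene for 35869 genes in 16 libraries, so the depth is unknown and a count model was not used.

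A gene entered a comparison if 4 or more libraries reached 1 TPM. Differences were fitted on the log2(TPM + 1) scale by limma 3.58.1 (R 4.3.3), with a mean-variance trend, two-sided, and Benjamini-Hochberg adjustment over all genes tested (threshold 0.05). Fold changes on this scale understate those of low genes. Shares within catalytic pairs were compared by exact two-sided permutation tests, adjusted over 12 tests. The fits were tested on simulated data. The 49 genes and all lists were chosen with earlier results of these data known. All 49 could be named, and values per library were given for genes called in any comparison with or without the block, the catalytic pairs, Psme1 to Psme4 and the gene of each part that differed most. Other genes came from the fixed lists, with Tap1, Sirt3, Mir686, Gm3375 and Nek6 named for exon or word overlap.

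Same-numbered Aβ42+ and Aβ42- libraries of an age were taken as sorts of 1 pool. By the legend each replicate was sorted by uptake, whereas the titles share only a number and name no pool. Residuals of same-numbered libraries correlated across genes at r = 0.635, 0.0555, 0.437 and -0.0441 for young and 0.501, 0.0475, 0.479 and 0.0303 for old replicates 1 to 4. Alternatives covered the scaling, pseudocount, filters, background level, block, libraries left out and, added after the data were seen, 26S factors and leaving out replicate 3 of every group. Promoter windows came from the RefSeq annotation of GRCm38.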

Additional observations from a re-analysis of the deposited data

Results flagged for a closer look

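In 17 of the 148 groups of 4 libraries checked, 1 library stood away from the other 3 by more than Dixon's 95% limit, where chance alone gives about 1 in 20 groups. The same libraries recur for every gene, sum and share, so the groups are not independent. The count was therefore not tested against that rate. Of the 17, 12 were in old Aβ42+ replicate 3, the library with the highest background level. It was the lowest of its group for Psmb3 (166.2 TPM), Psmb5 (114.5 TPM), Psmb6 (221.8 TPM), Psmb8 (122.3 TPM), Psmd8 (257.8 TPM) and Psme2 (41.92 TPM). It was also the lowest for the summed TPM of the constitutive core (1978), of the immune catalytic subunits (210.0), of Psme1 and Psme2 (263.8) and of all 49 genes (5520.0), and for the geometric mean of the 26S subunits (135.4 TPM), and the highest for the share of Psmb9 beside Psmb6 (21.16%). Old Aβ42+ replicate 2 was the lowest of its group for Psmb9, at 54.79 TPM. Old Aβ42- replicate 3 was the highest for Psmd8, at 420.1 TPM. Old Aβ42- replicate 1 was the highest for the share of Psmb10 beside Psmb7, at 15.37%, and for the summed core chaperones, at 217.6 TPM. Young Aβ42- replicate 1 was the highest for the sum of Psme1 and Psme2, at 471.0 TPM.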

How the results depend on the processing

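Between old and young Aβ42- cells the number of the 49 genes called was 0, and 4 with quantile normalization, 3 with a mean of at least 5 TPM, 7 with a mean of at least 50 TPM, 4 with the replicate block, 2 with all 16 libraries in the fit and 4 with the 26S factors. It ran from 0 to 11 when 1 library was left out, with 11 without young Aβ42- replicate 1 (42.0% of all genes) and 7 without old Aβ42- replicate 3 (14.5%). Between young sorts 1 gene was called with quantile normalization. Between old sorts the count of 1 became 0 with quantile normalization, with the background level subtracted or as a covariate, with a mean of at least 50 TPM, with the 26S factors and with the pool as a block beside the background covariate, 4 with the pool as a block alone and 2 with all 16 libraries. It ran from 0 to 4 when 1 library was left out, with 4 without old Aβ42+ replicate 1 (55.1% of all genes), 3 without old Aβ42- replicate 3 (37.0%) and 0 without old Aβ42+ replicate 2 or 4 or old Aβ42- replicate 1, 2 or 4. For the change of the uptake difference with age 3 genes were called with the pool as a block. The difference in the share of Psmb10 between old sorts was -3.26 points with the background level subtracted. With the background level as a covariate Psmd10 turned to -0.0387 between old sorts and to -0.00229 for the change with age, whereas with the pool as a block beside that covariate it was at 0.46 and 0.44. The causes were not tested. The block moved no other count of calls among the 49 genes. Young and old libraries share only a number in their titles, so the block for age has no pairing in the design. Residuals of same-numbered ones correlated at r from 0.413 to 0.593 for replicates 1 and 3. For replicates 2 and 4 r ran from -0.0622 to 0.0318, and what the libraries share was not tested. TPM keeps no depth, so small differences of low genes such as Psma8 and Psmb11 could not be judged.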
